A study of Mus musculus with 2 samples.

Results

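Notch1 ChIP-seq peaks were examined at 10 genes of the RUNX and ETS transcription factor families in gamma delta T cells. The genes were chosen by name, with earlier results of these data known, so their shares beside all genes are descriptions. They were Runx1, Runx2, Runx3 and their partner Cbfb, and the ETS genes Ets1, Ets2, Fli1, Elf1, Etv5 and Gabpa. These are 10 of 21938 nuclear protein-coding genes of the GENCODE M21 annotation. A peak was assigned to a gene if it overlapped the gene body or lay within 50 kb of any of its annotated start sites. Of the 5910 peaks on nuclear chromosomes 25 met this rule, at 7 of the 10 genes. Primary gamma delta T cells had been taken from thymi of newborn C57BL/6 mice (wild type, postnatal day 0 to 3). The series held 1 library made by chromatin immunoprecipitation with a rabbit monoclonal Notch1 antibody (D1E11) and 1 input library made without antibody from the same kind of cells. The input library is not analysed here. With 1 Notch1 library and no replicate, the values below describe this library, no test between conditions was possible, and the depth of sequencing is unknown.

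RUNX proteins bind DNA through a Runt domain as heterodimers with CBFB, which does not itself contact DNA but raises their affinity for it. ETS proteins share a winged helix domain that recognises sites built around GGAA. Both families act throughout T cell development, and their motifs are common in T cell enhancers. Notch1 acts in the nucleus once its intracellular domain is cleaved from the receptor and joins RBPJ, the protein that contacts the DNA, and in T cell lines sites bound by Notch are often found next to RUNX and ETS motifs. The series was made to find where the intracellular domain binds. A peak records enrichment of a DNA stretch and not expression of the gene near it.

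The cell type label could be set only against peaks, not against expression. Under the same window rule 7 of 8 genes listed as gamma delta T cell markers had a peak, beside 31.7% of all protein-coding genes. The list was Trdc, Tcrg-C1, Cd3d, Cd3e, Cd3g, Cd247, Sox13 and Il2ra. Its CD3 genes, Cd247 and Il2ra are not particular to gamma delta cells, so the count does not tell these from alpha beta cells. The exception was Trdc, whose nearest peak lay 81.8 kb away. The Tcrg-C1 peak lay 30.9 kb away, nearest to a start of Stard3nl. Cd3d and Cd3g were both counted on 1 shared peak that was nearest to a start of Ube4a. Of the marker genes of other cells, 1 of 6 had a peak for alpha beta thymocytes, 3 of 6 for B cells and 2 of 6 for myeloid cells. The myeloid gene Mpo held 7 peaks in its window, as many as Cd247, which encodes a T cell receptor signalling chain. None of the Mpo peaks was closer than 33.2 kb to an Mpo start, and the highest was nearest to Tspoap1. At Cd247 a peak covered a start site.

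At 7 of the 10 genes, or 70%, there was at least 1 peak, where 31.7% of all 21938 protein-coding genes had one under the same rule. A wide window holds more peaks by its width alone, so the genes were also read by the width of their windows. Of the 5 genes with windows under 150 kb (Runx3, Cbfb, Ets2, Etv5 and Gabpa) 2 had a peak, beside 29.2% of genes in that class. All 3 genes with windows of 150 to 250 kb (Ets1, Fli1 and Elf1) had one, beside 42.6%. Both genes with windows over 250 kb (Runx1 and Runx2) had one, beside 50.5%. The narrow-window count of 2 in 5 is near its background and is no result about these genes.

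Several of the genes held more than 1 peak. At least 3 peaks lay at 5 of the 10 genes (Runx1, Runx3, Ets1, Fli1 and Etv5), beside 3.49% of all protein-coding genes. In the class of 150 to 250 kb, 2 of 3 genes reached 3 peaks, beside 5.98% of genes, and in the class under 150 kb 2 of 5 did, beside 2.82%. Ets1 held 7 peaks, a number that 53 protein-coding genes reached (0.242%), 8 of them among the 2359 genes with windows of 150 to 250 kb (0.339%). Runx1 held 5, reached by 0.597% of genes. Runx3 and Fli1 held 4 each, and 4 or more were reached by 1.31%. Etv5 held 3, and Runx2 and Elf1 held 1 each. In the class over 250 kb, 1 of 2 genes reached 3 peaks, beside 9.1%. The union of the 10 windows spanned 1.74 Mb and held 14.3 peaks per Mb. The windows of all protein-coding genes together held 2.83 and the nuclear genome without gaps 2.23. Since the 10 genes were chosen with earlier results known, these contrasts describe them and are not an unbiased comparison. No peak was shared by 2 of the 10 genes, although Fli1 and Ets1 are neighbours on chromosome 9, with 93.4 kb between their gene bodies.

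**Figure D1:**
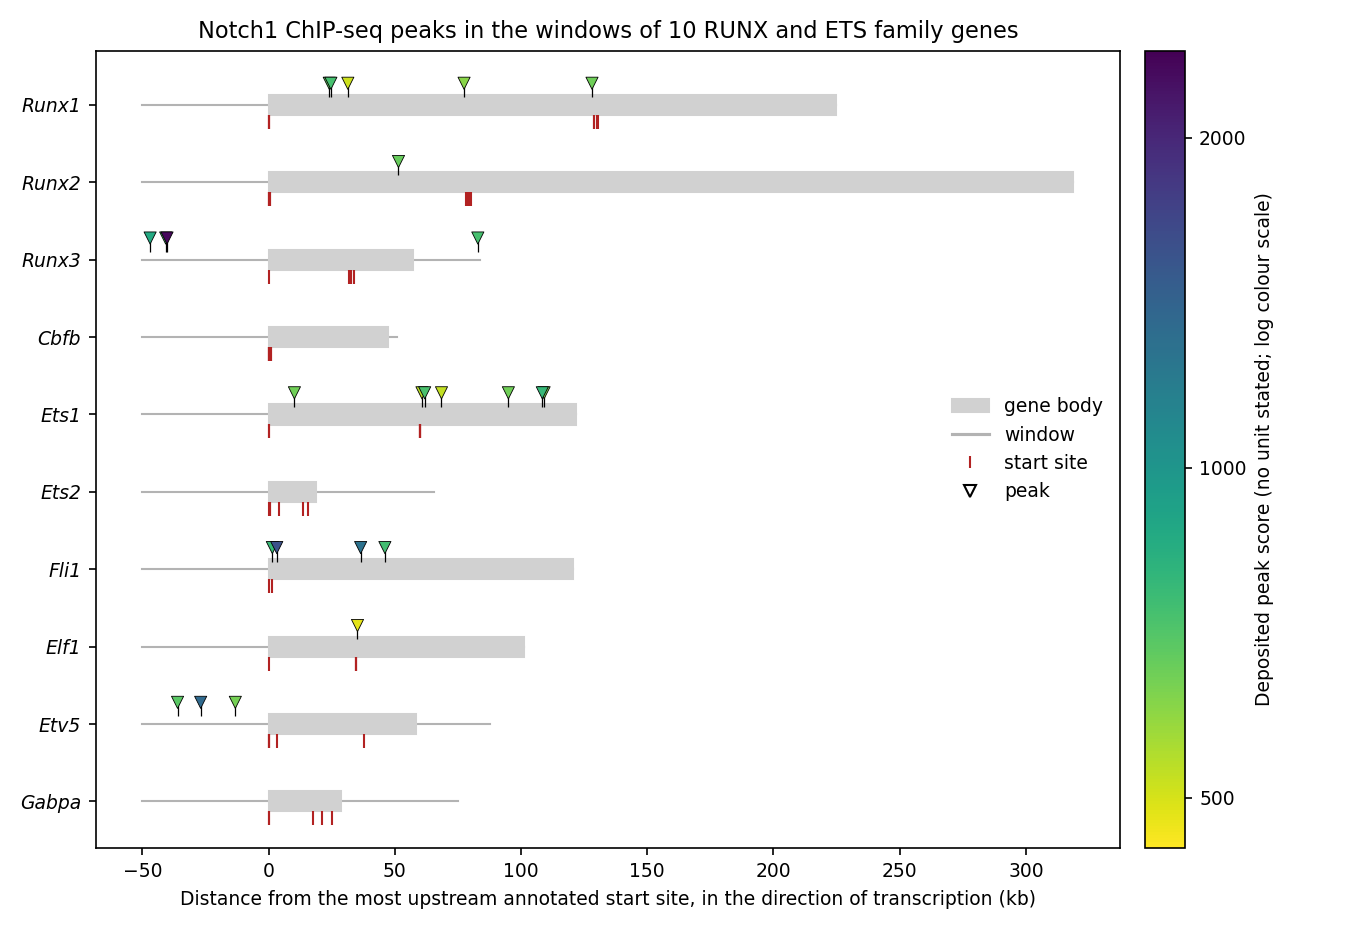
Each row is 1 gene, drawn in its direction of transcription, with distance in kb from its most upstream start site on the horizontal axis. Grey boxes are gene bodies, grey lines the windows, red ticks start sites, and triangles peaks coloured by deposited score. The 5 Runx1 peaks and 7 Ets1 peaks lie inside the gene, the Etv5 peaks all upstream of it, and Cbfb, Ets2 and Gabpa carry none.

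**Figure D2:**
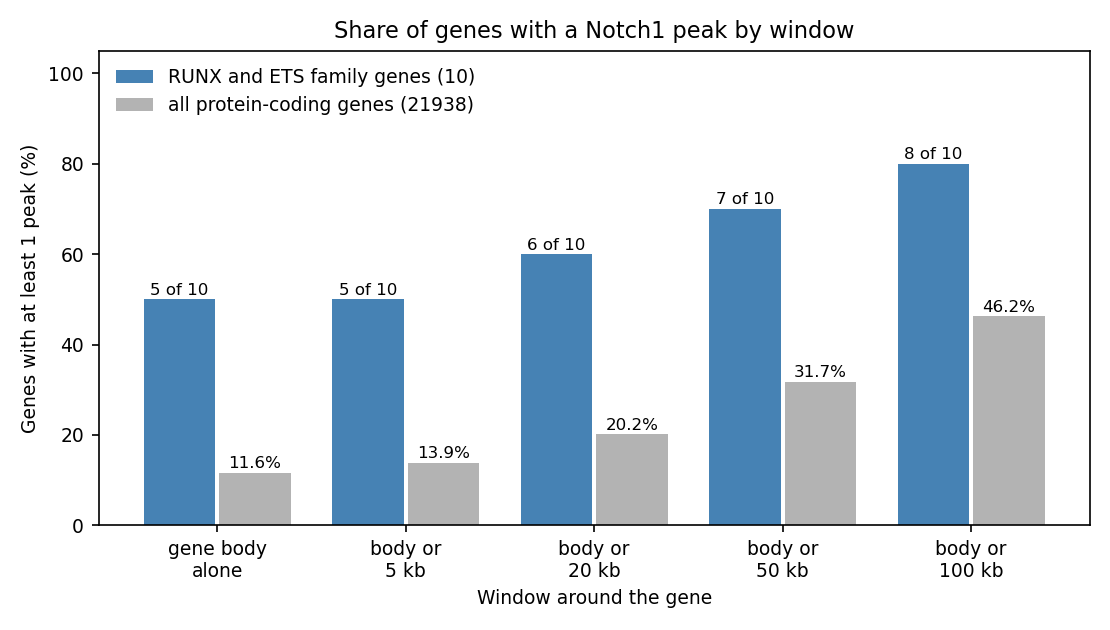
Bars give the percentage of genes with at least 1 peak for 5 windows, for the 10 RUNX and ETS family genes (left bar of each pair) and for all 21938 protein-coding genes (right bar). From the gene body alone through 5, 20, 50 and 100 kb, the count among the 10 genes was 5, 5, 6, 7 and 8, and the share of all genes was 11.6, 13.9, 20.2, 31.7 and 46.2%.

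Most of the 25 peaks lay away from promoters. By class, 15 lay in introns, 6 in intergenic sequence, 4 within 1 kb of a protein-coding gene's start, and 0 in an exon outside promoters. As shares these were 60% intronic, 24% intergenic and 16% promoter, where all 5910 nuclear peaks were 36.4% intronic, 36.1% intergenic, 19.8% promoter and 7.56% exonic. Windows that take in the whole gene body favour introns by construction. Of the 25 peaks 18 lay inside the gene body of the gene they were assigned to and 7 outside it.

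Peaks at these genes were often close to another peak. Of the 25, 8 had a neighbouring peak less than 1 kb away (32.0%), as did 531 of the 5910 nuclear peaks (8.98%). Within 10 kb the counts were 17 of 25 (68.0%) and 1105 of 5910 (18.7%). Several peaks in 1 window bring short gaps with them, and the shares were not matched for the number of peaks per window. The gaps are therefore not a finding separate from the peak counts above. The 4 pairs under 1 kb lay at Runx3 (180 bp between the peaks), Runx1 (330 bp), and at 2 places in Ets1 (387 and 719 bp). Whether such a pair is 1 bound region divided by the peak caller was not tested.

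The authors' own score, whose scale no header or label states, ranks peaks within the list. The 25 peaks scored between 484 and 2310.0, with a median of 689.5, and all nuclear peaks had a median of 718. At or above that overall median were 12 of the 25 (48.0%), and 4 were in the upper quartile of the list (16%). Those 4 were at Runx3, Fli1 (2 peaks) and Etv5.

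**Figure D3:**
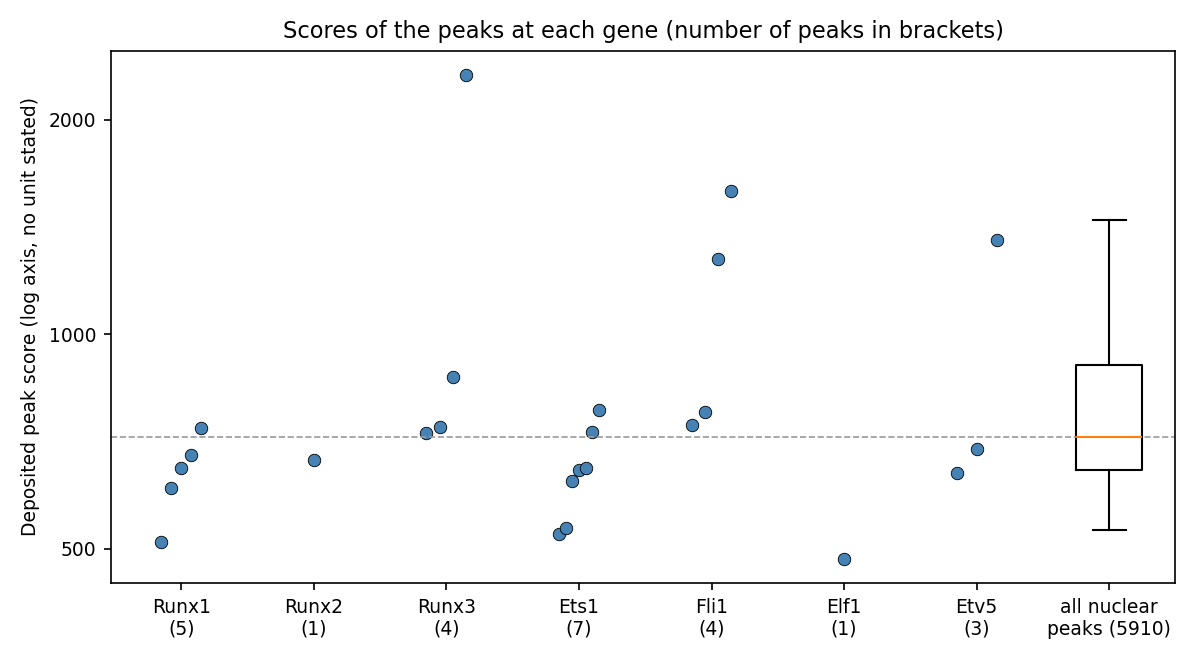
Points are the deposited scores of single peaks on a log axis, by gene, and the box at the right gives the quartiles of all 5910 nuclear peaks with whiskers at the 5th and 95th percentiles. The dashed line is the overall median of 718. All 4 Runx3 and all 4 Fli1 peaks sit above it, and the peaks of Runx2 and Elf1 sit below it.

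Short strings that mark sites of the factors were read on both strands of every peak. They were the RBPJ core TGGGAA, the longer RBPJ strings GTGGGAA and GTGAGAA, the RUNX strings TGTGGT and TGCGGT, the ETS strings CCGGAA (strict) and AGGAAG (broad), CACGTG and CACGCG for HES repressors, and TGANTCA for AP-1. GTGGGAA contains the core, so sites are counted with overlapping RBPJ strings as 1. A string in a peak is a description of its letters and not evidence of a bound factor.

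Runx1 is required for the first definitive blood stem cells and for early thymocytes. The gene spans chr16:92601466-92826149 on the minus strand and is transcribed from a distal and a proximal promoter, between which blood enhancers are known in mouse. Its 5 peaks all lay between those promoters, whose start sites at 92826149 and 92697328 are 129 kb apart, in the second intron of the widest coding transcript. The peak at chr16:92697827-92698233 lay 499 bp upstream of the proximal start and scored 649. Further upstream of the proximal start, by 51.2 kb, a peak at chr16:92748541-92748875 scored 608. A group of 3 lay 23.5 to 30.8 kb downstream of the distal promoter's nearest coding start, at chr16:92801943-92802272 (score 677), chr16:92801303-92801612 (738) and chr16:92794540-92794961 (511). Only the peak of 738 exceeded the overall median score, and it ranked 2676 of 5910.

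The pair at 23.5 and 24.2 kb differed in sequence content. The peak 23.5 kb away held 1 copy of TGGGAA, 1 longer RBPJ string and 1 ETS string, whereas its higher neighbour held 0 of the strings searched. The promoter-proximal peak held 1 RUNX string and no RBPJ string, and the peak at 92748541 likewise.

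Runx2 directs bone formation and is also expressed in T cells. Its gene, chr17:44495987-44814797 on the minus strand, is the longest of the 10 at 319 kb and carried 1 peak. That peak, at chr17:44763365-44763754 in the second intron of 8, scored 665 and lay 26.7 kb upstream of the nearest Runx2 start site. A start site of Supt3, which encodes a subunit of histone acetyltransferase complexes, lay closer, at 13.4 kb, and this was the single peak of the 25 nearer to a coding start of another gene. It was also the richest of the 25 in soft-masked repeat sequence, at 49.2% of its bases. The central 300 bases, chr17:44763410-44763709 on the plus strand of mm10, are shown for its 3 AGGAAG copies, in capitals, which lie on the same strand with 4 and 10 bases between them.

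Runx2 intronic peak: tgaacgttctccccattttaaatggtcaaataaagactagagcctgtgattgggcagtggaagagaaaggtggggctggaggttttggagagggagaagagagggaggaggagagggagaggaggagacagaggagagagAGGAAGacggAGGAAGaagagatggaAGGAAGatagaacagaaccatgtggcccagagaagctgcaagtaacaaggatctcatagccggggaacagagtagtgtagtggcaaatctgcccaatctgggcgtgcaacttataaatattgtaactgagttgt

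At least 3 copies of AGGAAG occurred in 2 of the 25 peaks and in 2.77% of all nuclear peaks.

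Runx3 is needed for cytotoxic T cell identity and for epidermal gamma delta T cells in mouse. The gene spans chr4:135120652-135177990 on the plus strand, and its 4 peaks all lay outside it. A group of 3 lay upstream of the distal start site, at distances of 46.8 kb (chr4:135073608-135073868, score 871), 40.6 kb (chr4:135079736-135080066, score 726) and 40.03 kb (chr4:135080247-135080627, score 2310.0). The fourth peak, at chr4:135203397-135203689, scored 739.7 and lay 49.0 kb downstream of a start site of a non-coding Runx3 transcript but 50.9 kb from the nearest coding start. It therefore left the window when coding transcripts alone were used. Runx3 was the nearest coding gene for all 4 peaks.

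The peak of 2310.0 ranked 68 of 5910, above 98.8% of the list, and was the highest at any of the 10 genes. Its central 300 bases, chr4:135080288-135080587 on the plus strand of mm10, are shown because that peak leads the group. Capitals mark 2 copies of the strict ETS string.

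Runx3 upstream peak: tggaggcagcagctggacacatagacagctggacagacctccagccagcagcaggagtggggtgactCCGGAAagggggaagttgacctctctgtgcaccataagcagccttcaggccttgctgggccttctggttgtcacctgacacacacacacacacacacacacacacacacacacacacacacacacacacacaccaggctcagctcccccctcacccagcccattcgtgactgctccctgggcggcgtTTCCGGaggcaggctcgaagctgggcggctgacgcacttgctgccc

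The sequence also holds an uninterrupted run of CA repeats of 56 bp. A CA or TG run that long occurred in 2 of the 5910 nuclear peaks. The 442 peaks with a run of 20 bp or more had a median score of 797, and the other 5468 had one of 714. The part of the repeat in the Runx3 score was not tested. Without that peak, Runx3 kept 3 peaks with scores of 726 to 871.

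The neighbouring Runx3 peak, 180 bp away, held 1 longer RBPJ string, 1 AGGAAG and 1 AP-1 string. The most upstream peak held 2 AP-1 strings and no RBPJ, RUNX or ETS string. A RUNX string was present in 1 of the 4 Runx3 peaks, the downstream one, beside 30.5% of all nuclear peaks.

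Cbfb, which encodes the common partner of the 3 RUNX proteins, carried no peak. The gene lies at chr8:105170674-105217989, and the nearest peak was 127 kb downstream of its closest start site, at chr8:105298838-105299233 (score 659). That peak overlapped an exon of E2f4, a cell cycle regulator, 1.18 kb from an E2f4 start site.

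Among the ETS genes, Ets1, which lymphocytes express at high level and which T cells need to develop normally, carried the most peaks. The gene, chr9:32636221-32757820 on the plus strand, held 7 peaks spread over 99.3 kb. Their scores were all modest, from 524 to 782 with a median of 645, and 2 of the 7 exceeded the overall median. The most upstream, at chr9:32646283-32646646 (score 648), lay 10.04 kb downstream of a start site of non-coding Ets1 transcripts and 49.4 kb upstream of the nearest coding start. Near the coding starts lay peaks at 394 bp (chr9:32696778-32697187, score 535), 1523 bp (chr9:32697907-32698221, score 728) and 8.15 kb (chr9:32704530-32704921, score 524). These distances are from the nearest coding start, at 32696384, and all these peaks lay downstream of it in the first intron. Deeper in the gene were a peak in the third intron, 34.6 kb from the start (chr9:32731029-32731406, score 645), and a pair in the sixth intron, at 48.1 kb (chr9:32744521-32744789, score 782) and 48.8 kb (chr9:32745177-32745556, score 622).

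Sequences of 3 Ets1 peaks are shown for the arrangement of their strings. The peak of highest score, whole at chr9:32744521-32744789, held a longer RBPJ string, a RUNX string and an RBPJ core. From the peak in the third intron, which held 4 AGGAAG copies and 2 RUNX strings, the central 300 bases at chr9:32731068-32731367 are given. From the most upstream peak they are given at chr9:32646315-32646614, since its 2 RBPJ cores lay on the same strand with 4 bases between them and an AP-1 string beside them. The last of these peaks and the one in the third intron were chosen after their values were seen. All are on the plus strand of mm10, and capitals mark any of the strings searched.

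Ets1 peak in the sixth intron: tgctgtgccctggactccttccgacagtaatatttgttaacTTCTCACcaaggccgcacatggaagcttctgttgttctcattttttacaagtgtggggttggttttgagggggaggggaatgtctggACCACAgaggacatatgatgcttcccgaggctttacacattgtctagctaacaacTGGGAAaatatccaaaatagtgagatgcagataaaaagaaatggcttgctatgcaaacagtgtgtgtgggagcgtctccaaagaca
Ets1 peak in the third intron: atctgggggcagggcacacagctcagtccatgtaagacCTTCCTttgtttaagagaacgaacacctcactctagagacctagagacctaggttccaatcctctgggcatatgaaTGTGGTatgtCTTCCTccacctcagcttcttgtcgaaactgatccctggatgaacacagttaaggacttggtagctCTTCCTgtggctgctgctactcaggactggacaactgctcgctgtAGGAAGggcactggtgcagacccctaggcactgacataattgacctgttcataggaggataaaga
Ets1 most upstream peak: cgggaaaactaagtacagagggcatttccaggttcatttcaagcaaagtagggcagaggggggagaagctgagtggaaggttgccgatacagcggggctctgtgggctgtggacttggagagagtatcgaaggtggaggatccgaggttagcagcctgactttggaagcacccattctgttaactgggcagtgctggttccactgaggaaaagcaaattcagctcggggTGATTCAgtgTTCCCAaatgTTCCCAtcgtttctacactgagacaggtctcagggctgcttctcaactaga

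RBPJ strings were present in 3 of the 7 Ets1 peaks, RUNX strings in 2 and ETS strings in 3. Over all nuclear peaks the shares were 33.9, 30.5 and 41.8%, so these counts are near background and are no result about Ets1. In the peak of the third intron a RUNX and an ETS string lay 4 bases apart. At least 4 copies of AGGAAG occurred in 0.897% of all nuclear peaks, and the peak in the third intron of Ets1 was the 1 of 25 with that many. The cut-off is that peak's own count, so the share describes the peak and is no test of it.

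Fli1 acts in blood stem cells, megakaryocytes and lymphocytes. It lies beside Ets1 in the opposite orientation, at chr9:32422204-32542861 on the minus strand, and carried 4 peaks, each at or above 745. All 4 were inside the gene and above the overall median score. The peak nearest to a start site, 87 bp downstream of it, overlapped the first exon at chr9:32541221-32541508 and scored 778. In the first intron were peaks 1.65 kb (chr9:32539278-32539943, score 1587), 34.9 kb (chr9:32506092-32506675, score 1276) and 44.7 kb from that start (chr9:32496641-32496921, score 745). The peaks of 1587 and 1276 ranked 222 and 453 of 5910 and were the widest of the 25, at 666 and 584 bp.

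The central 300 bases of the Fli1 peak of highest score, chr9:32539461-32539760 on the plus strand of mm10, follow, with the 1 AGGAAG that falls within them in capitals.

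Fli1 first intron peak: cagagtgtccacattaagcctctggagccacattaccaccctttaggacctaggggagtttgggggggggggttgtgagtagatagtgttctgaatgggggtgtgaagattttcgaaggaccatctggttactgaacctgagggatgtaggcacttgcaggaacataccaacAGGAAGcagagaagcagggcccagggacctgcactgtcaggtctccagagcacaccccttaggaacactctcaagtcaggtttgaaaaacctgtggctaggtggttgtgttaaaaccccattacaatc

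Outside that stretch the same peak held a further AGGAAG with a RUNX string 1 base from it. RBPJ strings occurred in 2 of the 4 Fli1 peaks, 1 copy each, beside 33.9% of all nuclear peaks. They were the longer string in the peak of 1276, together with a strict ETS string, and the core in the promoter peak, together with AGGAAG.

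Elf1, which encodes an ETS factor active at many lymphoid genes, carried 1 peak of low score. The gene spans chr14:79481194-79582494 on the plus strand. Its peak at chr14:79515949-79516297 lay 251 bp downstream of the inner start site and scored 484, which exceeded 2.67% of the nuclear peaks. It held 0 of the strings searched.

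Etv5, which belongs to the PEA3 subgroup of ETS factors and is known in mouse for a role in gamma delta T cells that make interleukin-17, carried 3 peaks that each held an RBPJ string. The gene lies at chr16:22381309-22439719 on the minus strand. All 3 peaks were upstream of it, at 13.01 kb (chr16:22452731-22453038, score 638), 26.6 kb (chr16:22466360-22466863, score 1356) and 35.9 kb (chr16:22475584-22475948, score 689.5). The most distant overlapped the neighbouring gene Dgkg, which encodes a diacylglycerol kinase, but Etv5 held the nearest coding start for all 3. The middle peak ranked 368 of 5910.

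The Etv5 peaks held 7 RBPJ sites in all, 4 of them in the middle peak. Of the other 22 peaks 7 held at least 1 site, with 10 sites in all, and 33.9% of all nuclear peaks held at least 1. In the middle peak there were 4 RBPJ sites, a number reached by 15 of the 5910 nuclear peaks (0.254%), beside 3 RUNX strings, 1 strict ETS string and 1 AGGAAG. It was the 1 peak of 25 with RBPJ, RUNX and ETS strings together, a combination present in 315 nuclear peaks (5.33%). That peak is 504 bp wide, above the median width of 370 bp, which gives more room for strings. The peak nearest to the gene held GTGGGAA at 2 positions, 2 RUNX strings and 1 HES string, and at least 2 of the longer RBPJ strings occurred in 1.24% of all nuclear peaks. The cut-offs of 4 sites and of 2 longer strings are these peaks' own counts. Their shares describe the peaks and are no test of them.

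The central 300 bases of both peaks are shown, on the plus strand of mm10, from chr16:22466462-22466761 and, chosen after its values were seen, from chr16:22452735-22453034. Capitals mark the strings. In the sequence of the middle peak the run of 11 capitals is a pair of RUNX strings that share a base.

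Etv5 middle peak: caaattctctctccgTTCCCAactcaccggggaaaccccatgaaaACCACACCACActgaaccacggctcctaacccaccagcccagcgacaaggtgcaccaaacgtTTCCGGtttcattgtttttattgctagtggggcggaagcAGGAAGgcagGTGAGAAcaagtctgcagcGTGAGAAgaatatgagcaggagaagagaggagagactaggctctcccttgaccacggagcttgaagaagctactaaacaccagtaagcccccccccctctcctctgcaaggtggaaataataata
Etv5 peak nearest to the gene: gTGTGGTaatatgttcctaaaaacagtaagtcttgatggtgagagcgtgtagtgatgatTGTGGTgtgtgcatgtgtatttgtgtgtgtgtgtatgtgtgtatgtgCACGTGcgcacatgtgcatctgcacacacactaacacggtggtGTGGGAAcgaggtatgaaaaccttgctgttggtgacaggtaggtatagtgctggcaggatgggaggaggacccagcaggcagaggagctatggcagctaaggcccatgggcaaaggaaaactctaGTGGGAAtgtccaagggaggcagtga

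In the middle peak AGGAAG was followed after 4 bases by GTGAGAA and after a further 12 bases by a second GTGAGAA on the same strand.

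Neither Ets2, an ETS factor that answers to growth factor signals, nor Gabpa, the DNA-binding subunit of GABP, carried a peak. For Ets2 (chr16:95702075-95721051) the closest peak was 52.0 kb away from the start of a non-coding transcript, 1.96 kb beyond the window, and 63.4 kb from a coding start. It was at chr16:95769695-95770042 inside the non-coding gene 1600002D24Rik, scored 782 and was the nearest peak left out, while the Runx3 peak at 49.0 kb was the last one taken in outside a gene body. For Gabpa (chr16:84834925-84863779) the nearest peak was 251 kb upstream (chr16:84583729-84584160, score 1161). Gabpb1, which encodes a partner of GABPA and was listed among further genes, had 4 peaks with a highest score of 850.3, and Gabpb2 had none.

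Within 1 kb of a start site, 4 of the 10 genes had a peak, namely Runx1, Ets1, Fli1 and Elf1, beside 5.16% of all protein-coding genes. Of these peaks only the one at Fli1 was above the median score of the list. The share of all genes was not matched for number of annotated start sites. Promoter stretches from RefSeq (GRCm38.p6, from 250 bases before the start to 50 after it) were also compared, with 0 listed for Ets1 and Fli1. Of the 12 at the other genes 0 overlapped a peak, beside 1.66% of all 32851 such stretches. Peaks at those genes lay 251 bp or more from an annotated start, so this 0 adds little to the distances.

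**Figure D4:**
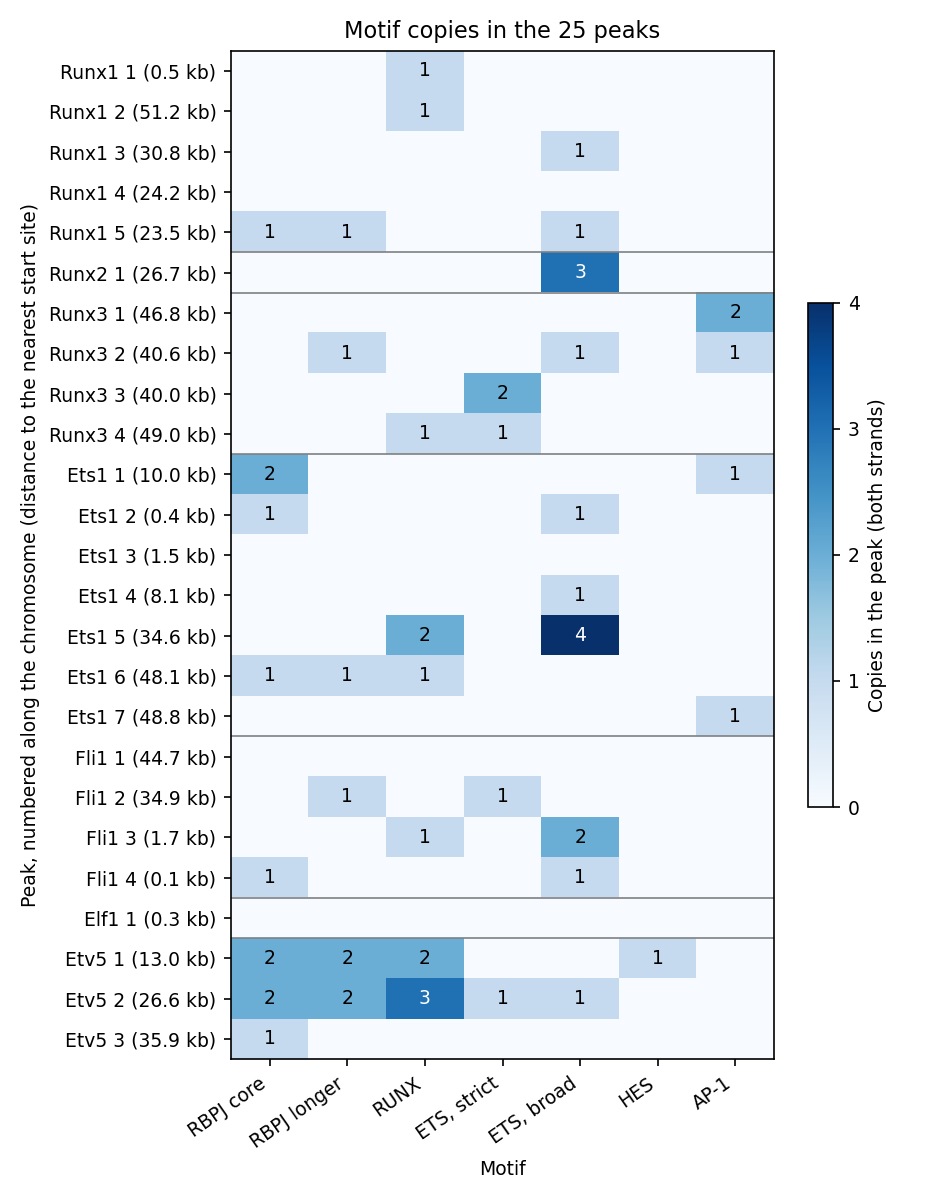
Each row is 1 of the 25 peaks, numbered along the chromosome within its gene with the distance to the nearest start site in brackets, and each column is 1 kind of string. Cells give the number of copies on both strands. The 3 Etv5 rows hold RBPJ copies throughout, and 4 rows (at Runx1, Ets1, Fli1 and Elf1) hold none of the strings.

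Over the 25 peaks the commonest strings were about as frequent as in the whole list. The RBPJ core was present in 8 (32.0%) and in 29.5% of all nuclear peaks, RUNX strings in 8 (32.0%) and 30.5%, and AGGAAG in 10 (40%) and 37.9%. The longer RBPJ strings were in 6 (24%) and 13.6%, the strict ETS string in 4 (16%) and 7.39%, AP-1 in 4 (16%) and 11.3%, and HES strings in 1 (4%) and 9.37%. At equal length, over 300 bp centred on each peak, the RBPJ core was in 9 of 25 and 24.99% of all, the longer strings in 5 and 11.0%, RUNX in 6 and 26.2%, CCGGAA in 4 and 6.07%, AGGAAG in 10 and 32.3%, HES in 1 and 7.85%, and AP-1 in 4 and 9.37%. With 25 peaks each one moves a share by 4 percentage points, and these counts were not tested. Close spacing was also counted, after the data were seen. A RUNX and an ETS string had at most 10 bases between them in 2 of the 25 peaks (Ets1 and Fli1) and in 1.78% of all nuclear peaks. For an RBPJ and an ETS string the counts were 2 (Ets1 and Etv5) and 1.62%. For an RBPJ and a RUNX string they were 0 of 25 and 1.07%. The GC content of the peaks had a median of 50%, and that of all nuclear peaks 43.9%.

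The genes' own motifs were about as frequent in their peaks as in all nuclear peaks, so their counts are no result about these genes. Of the 10 peaks at RUNX genes 3 held a RUNX string, and of the 15 at ETS genes 7 held an ETS string. RBPJ strings of either kind were in 2 of the 10 peaks at RUNX genes and in 8 of the 15 at ETS genes. Over all nuclear peaks these shares were 30.5% for RUNX, 41.8% for ETS and 33.9% for RBPJ strings.

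Further genes of the families and their partners were read in the same way. Of 20 further ETS genes 9 had a peak (45.0%), and of 12 RUNX cofactor genes 6 did (50%), beside 31.7% of all protein-coding genes. The median windows of these lists were 111 and 153 kb wide. In the width classes that hold those medians, 29.2 and 42.6% of protein-coding genes had a peak. The cofactor windows fell in both classes, from 106 kb at Tle5 to 246 kb at Runx1t1, so neither share is matched to that list. The cofactor count is not far above 42.6% and is not read as a result about those genes. Some of the 9 ETS genes were counted only on a peak nearest to a start of another gene. The highest scores were at the corepressor gene Tle1 (1352, over a start site), at Sin3a (1321, nearer to a start site of Neil1), at Yap1 (1164, 17.3 kb away) and at the acetyltransferase gene Kat6a (1109, over a start site). Among further ETS genes they were at Spib, which encodes a factor of B cells and plasmacytoid dendritic cells (989, 34.8 kb away and nearer to Emc10), and Elf2 (954, 1.48 kb away). The other RUNX cofactor genes with a peak were Cbfa2t3 (931) and Tle3 (602). Of the nuclear partners of Notch1, 1 of 3 had a peak, which is near the share of all genes and is no result about them. It was Rbpj (664, 11.4 kb from a start site), and Maml1 and Ep300 had none. The Rbpj window was 280 kb wide, and 50.5% of genes with windows over 250 kb had a peak. Its peak scored below the overall median of 718.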

How the data were processed

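Chromatin was fixed with 0.5% formaldehyde for 5 min and 18 PCR cycles were used to amplify the libraries, per the labels' protocols. Bowtie 1.0.0, SAMtools 0.1.18 and the build mm10 are named, without settings, in the submitters' processing notes. The deposited peak list gives a position, a name beginning with MACS and a score for each peak, and which version and settings the authors used for calling is not given in the sources used here. The read depth is unknown, and reads from repeated sequence or PCR duplicates cannot be measured from a peak list. The list held 5913 peaks, of which 3 mitochondrial ones were left out.

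Peaks were set on GRCm38 with GENCODE M21 in Python 3.11.15 (pandas 2.3.3, pysam 0.24.0), with positions counted from 1 and an overlap of at least 1 bp. Windows used all transcripts of a gene. Peaks were classed as promoter (within 1 kb of a protein-coding gene's start), exon, intron or intergenic, in that order. Strings were matched exactly on both strands, and functions were tested on simulated data. No p-value was computed, since there is 1 library. All 10 genes were named whatever their values, as were the 6 further family genes of highest score, the RUNX cofactor genes with a peak and genes whose start lay nearest to a peak, while Gabpb1 and Rbpj were named after their values were seen. Tle5 was matched by its older symbol Aes. Members, lists and strings were chosen with earlier results of these data known. Spacing between strings and repeat runs were examined after the data were seen. Cut-offs on the number of copies of a string equal counts found in the peaks described. The alternatives tried are given in the closing section.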

Additional observations from a re-analysis of the deposited data

How the results depend on the processing

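The count of 7 genes and 25 peaks held with peak midpoints (31.7% of all protein-coding genes then had a peak). With peaks less than 50% soft-masked it was the same by construction, since none of the 25 reached 50% (29.9% of all genes). With coding transcripts alone it was 7 genes and 24 peaks (30.6%). At or above the median score 5 genes and 12 peaks remained (19.3% of all genes), and in the upper quartile 3 genes (Runx3, Fli1 and Etv5) and 4 peaks (10.8%), by construction of fewer peaks. With the gene body or 20, 5 or 100 kb, 6, 5 and 8 genes had a peak (20.2, 13.9 and 46.2% of all genes), and with the gene body alone 5 (11.6%). Runx3 and Etv5 have no peak in the gene body, and Ets2 enters at 100 kb. With each peak given to the nearest coding start within 50 kb, 6 genes and 22 peaks remained, without Runx2 (13.7% of all genes). At or above the median score the nearest peak was more than 1.5 times as far away for Runx1 (24.2 kb), Runx2 (503 kb), Cbfb (452 kb), Ets1 (1.52 kb), Elf1 (188 kb) and Etv5 (26.6 kb). In the central 200 bp the longer RBPJ strings were in 3 peaks, AGGAAG in 5 and AP-1 in 2, by construction of a shorter sequence. No paired analysis was possible because there is 1 Notch1 library. The unknown depth and the single library limit what the absence of a peak can show.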
